A study of Homo sapiens with 4 samples.

Results

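Of the 63677 genes in the deposited table of MDA-MB-231 cells, 5485 carried the biotype antisense, and 160 of those had a mean of at least 100 normalized counts over the 4 libraries. These 160 expressed antisense RNAs are described here, chosen by that biotype and that mean and not by any difference between the groups. A normalized count is the number of reads of a gene divided by the size factor of its library. All libraries come from MDA-MB-231, a widely used human line of triple-negative breast cancer, and thus from a single line. In the siCt group the cells received a control siRNA, and in the siAxl group a pool of siRNAs directed against AXL, a receptor tyrosine kinase, both delivered with a lipid transfection reagent. Each group had 2 libraries. The labels do not say whether these came from separate cultures, so every p-value measures only the spread between these libraries, which may be technical.

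An antisense RNA is transcribed from the strand opposite to another gene. Many start close to the start of that gene and run away from it, as the divergent product of a shared promoter, while others begin inside or downstream of it and run through it. Some are known to act on chromatin or on the RNA of the neighbouring gene, some are host genes of small nucleolar RNAs, and for many no function is known. Whether reads were counted by strand is not stated for these data, so reads of an antisense RNA and of an overlapping gene on the other strand cannot be told apart. In bulk RNA, fewer cells carrying an RNA and less of that RNA per cell cannot be told apart either.

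The recovered reads numbered 39574387 to 44585773 per library. AXL itself was at 29189 and 30617 normalized counts in siCt and at 8658 and 7141 in siAxl, which left 26.4% of its siCt level. Of the markers of the line, VIM was at 86751 to 99296 and CD44 at 33968 to 36518 normalized counts. ESR1 and PGR did not exceed 3.25 in any library. EGFR was at 7355 and 7136 in siCt and at 12921 and 15004 in siAxl. ERBB2, low by definition in this type of cancer, was at 3089 and 2949 in siCt and at 3680 and 3536 in siAxl. Of the epithelial markers, EPCAM was at 565 to 771 over the libraries. CDH1 was at 90.1 and 94.3 in siCt and at 36.9 and 22.6 in siAxl. PTPRC, of white blood cells, was at 7.77 to 16.7, and PECAM1, of endothelium, was listed at 0 in all 4 libraries, where a count of 0 allows up to 3 reads. The share of mitochondrial genes was higher in the replicate 1 libraries of both groups (3.70% in siCt and 3.78% in siAxl) than in replicate 2 (2.11% and 2.28%).

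The 160 antisense RNAs together held between 0.193% and 0.208% of a library's reads and between 78.9% and 79.6% of all reads assigned to antisense genes. Their summed normalized counts were 88197 and 82862 in the siCt libraries and 88407 and 85826 in the siAxl libraries, a siAxl to siCt ratio of 1.02. The groups overlap in this sum. Expression was concentrated in few RNAs, and the 10 highest held 46.9% of the members' counts. At the edge of the rule, CAPN10-AS1 (mean 100.7) and CTD-2015H6.3 (100.3) lay just inside, and TLR8-AS1 (99.99) and CTC-241F20.3 (99.5) just outside.

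The highest member was MMP24-AS1, at 8675 and 8851 normalized counts in siCt and 8590 and 8817 in siAxl. TUG1, a nuclear RNA with reported roles in chromatin repression, followed at 7998 and 8214 in siCt and 8873 and 9266 in siAxl, both siAxl libraries above both siCt libraries. FGD5-AS1 was at 6534 and 5881 in siCt and at 7191 and 7283 in siAxl, again without overlap. None of the 3 was called, with log2 fold changes of -0.01 (SE 0.0524, limma, Benjamini-Hochberg adjusted p = 0.915) for MMP24-AS1, 0.16 (SE 0.0545, adjusted p = 0.0816) for TUG1 and 0.22 (SE 0.0652, adjusted p = 0.0549) for FGD5-AS1. A gene was called at an adjusted p under 0.05 over all 16064 genes tested.

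The other members among the 10 highest included HCG18, at 3557 and 3603 normalized counts in siCt and 3783 and 4097 in siAxl (log2 fold change 0.14, SE 0.0613, adjusted p = 0.166). ZBED5-AS1 was at 1623 and 1642 in siCt and 1625 and 1747 in siAxl (0.05, SE 0.0659, adjusted p = 0.678), and THAP9-AS1 at 1544 and 1393 against 1383 and 1302 (-0.13, SE 0.0768, adjusted p = 0.290). The libraries of ZBED5-AS1 hardly differed, and none of the 3 was called.

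Per kilobase of exon in GENCODE 29, the order of levels changed. MMP24-AS1 led with a mean of 1585 normalized counts per kb, followed by FGD5-AS1 with 1310, ZFAS1 with 917, TUG1 with 846 and ZBED5-AS1 with 832. KCNQ1OT1, the imprinted transcript antisense to the potassium channel gene KCNQ1 and the longest member at 91667 exonic bases, came down to 5.05 per kb. The exonic length of the members had a median of 2961 bases and reached down to 542. Of the 160, 157 had an entry in GENCODE 29, where 136 were still typed antisense, 8 processed transcript and 7 protein coding. Those 7 included MMP24-AS1 (now MMP24OS), LINC00094 (BRD3OS), RP11-139H15.1 (PIGBOS1) and TOPORS-AS1 (SMIM27).

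After silencing of AXL, 11 of the antisense RNAs rose and 5 fell in the fit without covariates. All 160 passed the filter on low counts. Across all genes tested, 10.8% were called higher, 7.91% lower and 18.7% in either direction, against 10% of the members, and among genes with a mean of at least 100 the share was 23.4%. Of 231 long intergenic noncoding RNAs with a mean of at least 100, 8.66% were called, and of 11287 protein-coding genes 24.5%. The share of the antisense RNAs was thus below the background of all genes and near that of the intergenic RNAs. The median SE of the log2 fold change was 0.142 over the members and 0.0891 over all genes tested.

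The median log2 fold change of the 160 was -0.0051, beside -0.0022 over all genes tested. The middle 50% of values lay between -0.20 and 0.16, and the full range from -0.54 for AC018766.5, which was not called (adjusted p = 0.207), to 0.88 for RP11-93B14.5. Positive values numbered 77 and negative values 83. Both siAxl libraries lay above both siCt libraries for 40 members and below for 45, whereas 30.6% of all genes tested lay above and 30.5% below. With 2 libraries against 2, the smallest p that an exact two-sided permutation test of a single RNA can give is 0.333. A total of 43 members had an unadjusted limma p under 0.05. The share of all genes at this threshold was not counted directly, but it is at least the 18.7% with an adjusted p under 0.05. Benjamini-Hochberg adjustment took a limma p of 0.0474 (TARBP2) to 0.142, which places that share above the 43 of the 160.

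**Figure D1:**
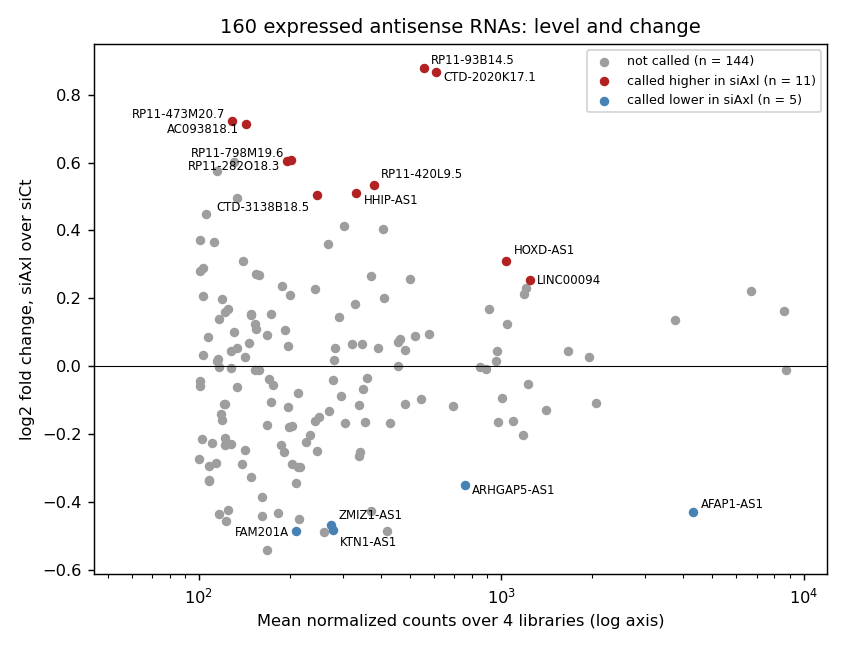
Each point is 1 of the 160 antisense RNAs, with its mean normalized count over the 4 libraries on a log axis and its log2 fold change (siAxl over siCt) on the vertical axis. The 11 called higher (red) reach 0.88 for RP11-93B14.5 and the 5 called lower (blue) lie between -0.48 and -0.35, among 144 that were not called (grey).

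The split between rises and falls depended on the scaling, being 8 and 7 with upper quartile scaling and 8 and 9 with scaling by library size alone. It also rested on single libraries, since without siAxl 1 or siAxl 2 only 3 and 4 were called higher and 2 and 2 lower, and without siCt 1 or siCt 2 the counts were 22 and 6, and 9 and 13. When every gene with at least 1 count was tested, only AFAP1-AS1, RP11-93B14.5 and RP11-420L9.5 were called. With the replicate number as a block, 58 members were called, beside 3737 genes higher and 3573 lower of the 16064 tested. No label says that a replicate number marks a shared batch.

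By name, 8 of the 81 RNAs known by a clone name were called (9.88%), each of them higher. Of the 64 named after a gene with an -AS ending, 2 were called higher and 4 lower (9.38%). Both shares were near the 10% of all members and under the 18.7% of all genes tested. The difference in direction was not tested. By level, 3 of 18 with a mean of 1000 or more were called, 10 of 66 between 200 and 1000, and 3 of 76 between 100 and 200. The corresponding shares of all genes tested were 26.4%, 19.9% and 12.5%.

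Among the RNAs that fell, AFAP1-AS1 was the most abundant. It lies antisense to AFAP1, which encodes an actin filament adaptor protein, and is known as an RNA that is high in several carcinomas. Its normalized counts were 5072 and 4839 in siCt and 3606 and 3766 in siAxl. The groups are well apart, with means of 4955 ± 164 in siCt and 3686 ± 113 in siAxl (SD, n = 2). The log2 fold change was -0.43 (SE 0.0577, adjusted p = 0.0051), and AFAP1-AS1 was called in each fit that left out 1 library and under each alternative scaling, filter and test.

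KTN1-AS1, which starts beside the kinectin gene KTN1, fell from 325 and 323 normalized counts in siCt to 231 and 233 in siAxl. The libraries within each group hardly differed. Its log2 fold change was -0.48 (SE 0.101, adjusted p = 0.0208). ARHGAP5-AS1, beside ARHGAP5, was at 857 and 843 in siCt and at 700 and 636 in siAxl. This gave a log2 fold change of -0.35 (SE 0.0818, adjusted p = 0.0284), and the groups did not overlap.

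ZMIZ1-AS1 stood at 322 and 314 normalized counts in siCt and 243 and 218 in siAxl, and FAM201A at 255 and 235 against 187 and 163. Both are lower in both siAxl libraries. The log2 fold changes were -0.47 (SE 0.110, adjusted p = 0.0289) for ZMIZ1-AS1 and -0.48 (SE 0.127, adjusted p = 0.0403) for FAM201A. Without either siAxl library, KTN1-AS1, ARHGAP5-AS1, ZMIZ1-AS1 and FAM201A were not called, FAM201A was also lost without siCt 1, DESeq2 did not call ZMIZ1-AS1 or FAM201A, and edgeR with TMM did not call FAM201A.

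RP11-93B14.5, known in GENCODE 29 as SLCO4A1-AS1, rose the most. It starts beside SLCO4A1, which encodes an organic anion transporter. Its normalized counts were 440 and 343 in siCt and 731 and 700 in siAxl, with means of 392 ± 68.3 and 715 ± 22.4 (SD, n = 2). The siCt libraries differ from each other more than the siAxl libraries do, and the groups stay far apart. Its log2 fold change was 0.88 (SE 0.126, adjusted p = 0.00605), and it was called in each fit without 1 library and under each alternative scaling, filter and test.

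CTD-2020K17.1, beside the formin gene FMNL1, was at 502 and 362 normalized counts in siCt and at 922 and 656 in siAxl. The replicate 1 library was the higher in each group, and the groups did not overlap. Its log2 fold change was 0.87 (SE 0.197, adjusted p = 0.0259), ranging from 0.62 without siAxl 1, where it was not called, to 1.11 without siAxl 2. RP11-473M20.7 (MMP25-AS1 in GENCODE 29) was at 109 and 84.5 in siCt and 183 and 139 in siAxl, a log2 fold change of 0.72 (SE 0.197, adjusted p = 0.0446). It was the only called member with a group mean under 100, and it lost the call under TMM, upper quartile and library size scaling, with DESeq2, with edgeR under TMM, and without siCt 2 or siAxl 1.

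AC093818.1, within the locus of the laminin receptor subunit gene ITGA6, was at 123 and 95.3 normalized counts in siCt and at 170 and 187 in siAxl. It changed by a log2 fold of 0.71 (SE 0.165, adjusted p = 0.0271). RP11-798M19.6 stood at 187 and 135 in siCt and at 240 and 246 in siAxl, and RP11-282O18.3 at 166 and 144 against 218 and 255. Both had a log2 fold change of 0.61, with SE 0.168 and adjusted p = 0.0464 for RP11-798M19.6 and SE 0.141 and adjusted p = 0.0278 for RP11-282O18.3. In all 3 the siAxl libraries were the higher, but without siAxl 1 or siAxl 2 the calls of AC093818.1 and RP11-798M19.6 were lost, and without siAxl 2 that of RP11-282O18.3. RP11-798M19.6 was also lost without siCt 2, under TMM, upper quartile and library size scaling, and with edgeR and DESeq2.

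RP11-420L9.5, beside PXDC1, rose from 320 and 299 normalized counts to 430 and 468 (log2 fold change 0.53, SE 0.0999, adjusted p = 0.0141). HHIP-AS1, which starts beside the hedgehog-interacting protein gene HHIP, rose from 290 and 258 to 399 and 380 (0.51, SE 0.107, adjusted p = 0.0202). CTD-3138B18.5, in the locus of the zinc finger gene ZNF544, rose from 207 and 199 to 303 and 275 (0.50, SE 0.113, adjusted p = 0.0246). The siCt libraries of each of these lie close together and clearly under the siAxl libraries. Without siAxl 2 none of the 3 was called, and without siAxl 1 HHIP-AS1 and CTD-3138B18.5 were not. DESeq2 did not call CTD-3138B18.5.

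HOXD-AS1, known in GENCODE 29 as HAGLR and situated in the HOXD cluster beside HOXD1, was at 927 and 929 normalized counts in siCt and at 1131 and 1170 in siAxl. This was the tightest siCt pair among the called RNAs. The log2 fold change was 0.31 (SE 0.0679, adjusted p = 0.0234). LINC00094, antisense to the bromodomain gene BRD3, showed the smallest called change, from 1113 and 1159 to 1389 and 1323 (0.25, SE 0.0681, adjusted p = 0.0423). Without either siAxl library neither was called, and LINC00094 also lost its call without siCt 1, with DESeq2 and under upper quartile or library size scaling.

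**Figure D2:**
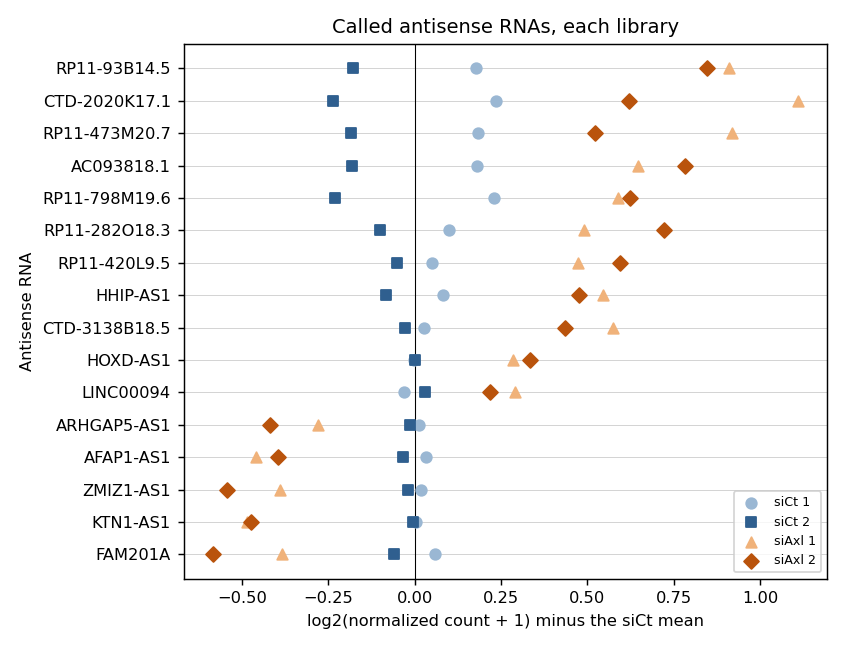
Each line is 1 of the 16 called antisense RNAs, and the horizontal axis gives log2(normalized count + 1) in each library minus the mean of the 2 siCt libraries. The siCt libraries (blue) sit around 0, and both siAxl libraries (orange) lie on the same side of them in all 16. The RNAs were chosen by a call on these same 4 libraries, so this separation follows from the choice and adds no support. Of all genes tested, 30.6% had both siAxl libraries above both siCt libraries and 30.5% below. The log2 fold changes run from -0.48 for FAM201A to 0.88 for RP11-93B14.5.

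Several members with described functions were not called. ZFAS1, a host gene of small nucleolar RNAs antisense to ZNFX1, was at 2059 and 2209 normalized counts in siCt and 1967 and 1990 in siAxl (log2 fold change -0.11, adjusted p = 0.279). Among the other host genes, SNHG7 had a log2 fold change of -0.16 (adjusted p = 0.186), SNHG10 of -0.34 (adjusted p = 0.153) and SNHG12 of 0.01 (adjusted p = 0.967). KCNQ1OT1 was at 0.08 (adjusted p = 0.635), LINC-PINT, a target of p53, at 0.07 (adjusted p = 0.785), and TP73-AS1, antisense to the p53 family gene TP73, at 0.12 (adjusted p = 0.417). VIM-AS1, antisense to the mesenchymal marker VIM, had 395 and 367 normalized counts in siCt and 433 and 443 in siAxl, and a log2 fold change of 0.20 (adjusted p = 0.178). A p that misses the threshold with 2 libraries per group does not show that the levels were equal.

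Part of the variation among the antisense RNAs ran between libraries of the same group. RP11-349A22.5 (PSMA3-AS1) was at 2356 normalized counts in siCt 1 but 1532 in siCt 2, and at 2277 in siAxl 1 but 1650 in siAxl 2. SNHG12 was at 1104 and 810 in siCt and at 1128 and 810 in siAxl, and SETD5-AS1 at 877 and 573 against 768 and 556. In these RNAs the replicate number separates the libraries and the siRNA does not. Over all members, 80 were higher and 32 lower in replicate 1 of both groups, and the share of mitochondrial reads was also higher in both replicate 1 libraries. Whether the 2 are related was not tested. The counts of the members differed between libraries of a group by more than sampling noise, with a chi-square per member of 6.10 for the siCt pair and 5.46 for the siAxl pair. Across the groups it was 7.99 for the replicate 1 libraries and 8.03 for the replicate 2 libraries.

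**Figure D3:**
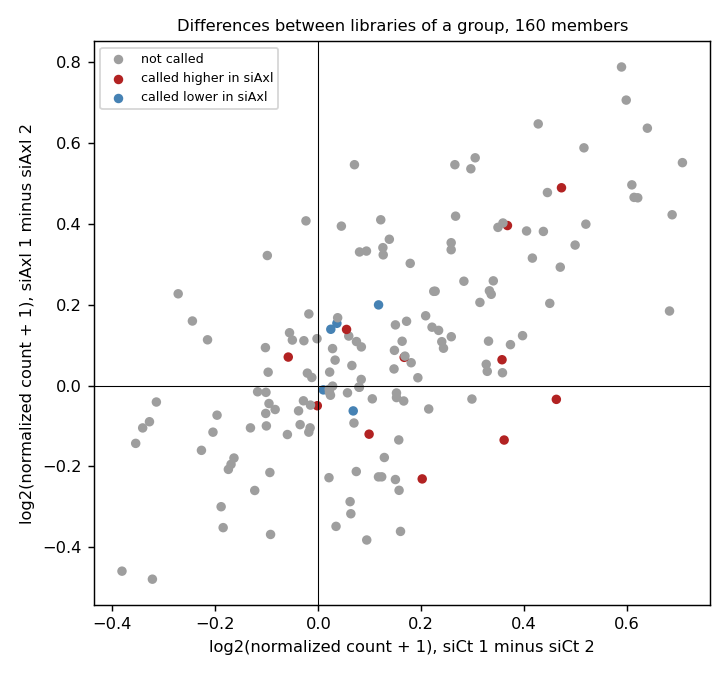
Each point is 1 of the 160 antisense RNAs, with the difference in log2(normalized count + 1) between siCt 1 and siCt 2 on the horizontal axis and between siAxl 1 and siAxl 2 on the vertical axis. The 80 members in the upper right quadrant were higher in replicate 1 of both groups, against 32 in the lower left, with the called RNAs in colour.

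How the antisense RNAs lie relative to other genes was read from GENCODE 29. Of the 157 listed, 152 overlapped a gene on the opposite strand or started within 1000 bases of its start. The share of exonic bases that also belong to an opposite-strand exon had a median of 8.92%. It was 0 for 36 members and at least 50% for 14. Among the 36 that share no exonic base, 2 were called higher and 1 lower, beside 9 and 4 of the 121 that share some. The shares called were 8.33% and 10.7%, beside 18.7% of all genes tested. ZMIZ1-AS1, RP11-798M19.6 and RP11-282O18.3 are the called RNAs with no shared exonic base. In AFAP1-AS1 the share was 7.70% and in RP11-93B14.5 22.6%.

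The start regions of 79 members were matched by name to RefSeq promoter windows of the build GRCh38.p14. These run from 250 bases before to 50 bases after the start. HNRNPU-AS1 was matched through a synonym to HNRNPU, so its window is that of the sense gene, and it remains in the counts that follow. The members' windows held a median of 28 CpG dinucleotides (range 1 to 54), beside 14 over all 27305 windows. The members were chosen by level and the 27305 were not, so this difference is not shown to be particular to antisense RNAs. In 20 of the 67 members with a window on the opposite strand, the windows shared bases. KTN1-AS1 and HHIP-AS1 are such cases among the called RNAs, sharing 214 bases with KTN1 and 236 with HHIP. The stretches printed here lie within the shared bases, on the strand of the antisense RNA, with CpG dinucleotides in capitals. That of KTN1-AS1 is chr14:55580043-55580209 with 27 CpG, and that of HHIP-AS1 chr4:144645970-144646020 with 8.
KTN1-AS1 and KTN1: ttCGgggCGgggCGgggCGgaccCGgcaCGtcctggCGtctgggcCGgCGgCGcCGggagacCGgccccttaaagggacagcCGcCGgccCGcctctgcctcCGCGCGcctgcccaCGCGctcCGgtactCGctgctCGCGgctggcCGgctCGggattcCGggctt
HHIP-AS1 and HHIP: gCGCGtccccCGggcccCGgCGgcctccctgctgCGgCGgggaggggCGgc

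The density of CpG varied among the called RNAs. The window of HOXD-AS1 (chr2:176188909-176189208, minus strand) held 45 and that of RP11-93B14.5 (chr20:62666572-62666871, minus strand) 13, and both are shown because these RNAs rose and their windows differ in CpG density. The CpG dinucleotides are again in capitals.
HOXD-AS1: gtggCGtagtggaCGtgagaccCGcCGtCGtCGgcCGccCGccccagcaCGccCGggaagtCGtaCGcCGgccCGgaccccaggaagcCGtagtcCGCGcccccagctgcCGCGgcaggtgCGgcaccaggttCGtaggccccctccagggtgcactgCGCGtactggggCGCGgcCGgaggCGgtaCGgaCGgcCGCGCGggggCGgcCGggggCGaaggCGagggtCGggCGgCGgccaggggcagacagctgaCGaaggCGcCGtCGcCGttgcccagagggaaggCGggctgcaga
RP11-93B14.5: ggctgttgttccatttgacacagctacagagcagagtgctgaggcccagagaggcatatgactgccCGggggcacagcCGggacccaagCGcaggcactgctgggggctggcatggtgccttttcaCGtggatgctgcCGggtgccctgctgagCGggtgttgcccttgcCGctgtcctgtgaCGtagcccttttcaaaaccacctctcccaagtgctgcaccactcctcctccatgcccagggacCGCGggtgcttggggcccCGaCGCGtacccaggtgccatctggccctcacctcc

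Short motifs were searched on both strands of the windows. TATAAA, the core of the TATA box, was in 3 of the 79 members (3.80%) and in 12.0% of all windows. CCAAT was in 25 (31.6%) against 35.7%, TGANTCA, the AP-1 word, in 4 (5.06%) against 7.76%, and CACGTG, an E-box, in 11 (13.9%) against 7.43%. Among the 9 called RNAs with a window, CCAAT was present in ARHGAP5-AS1 and ZMIZ1-AS1, CACGTG in RP11-93B14.5, and the other 2 motifs in none. These are matches of letters only, and the comparison is again with all windows and not with those of expressed genes.

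Next, each antisense RNA was set beside the sense gene whose name it carries. Of the 160, 63 had such a gene in the table and in 54 pairs both were tested. In 9 the sense gene was too low to test, such as CD27, listed at 0 in all 4 libraries beside 463 to 612 normalized counts for CD27-AS1, and FGD5, with a mean of 2.73. The log2 fold changes had the same sign in 29 pairs and opposite signs in 25. Their correlation across the 54 pairs was 0.19 (Pearson) and 0.14 (Spearman), as a description, since all pairs share the same 4 libraries. In the 36 pairs with starts within 1000 bases it was 0.35 and 0.30, and in the 15 that overlap with starts farther apart -0.30 and -0.36. The negative values did not recur in the wider set of opposite-strand genes described below.

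Of the 54 sense genes, 9 were called higher and 6 lower, a share near the 24.5% of protein-coding genes with a mean of at least 100. HHIP-AS1 and HHIP both rose, HHIP from 389 and 371 normalized counts in siCt to 525 and 521 in siAxl (log2 fold change 0.46, SE 0.0878, adjusted p = 0.0149). ZMIZ1-AS1 and ZMIZ1, a coactivator gene whose start is farther away and which it does not overlap, both fell, ZMIZ1 from 12889 and 14254 to 10546 and 11652 (-0.29, SE 0.0745, adjusted p = 0.0370). AFAP1-AS1 was the only pair with opposite calls. While the antisense RNA fell, AFAP1 rose from 9489 and 9886 to 11110 and 11880 (0.25, SE 0.0591, adjusted p = 0.0305). Leaving out siAxl 1 ended the calls of HHIP, ZMIZ1 and AFAP1, leaving out siAxl 2 those of HHIP and AFAP1, siCt 1 that of AFAP1 and siCt 2 that of ZMIZ1.

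KTN1 and ARHGAP5 were not called while their antisense RNAs fell. KTN1 was at 23477 and 26165 normalized counts in siCt and 25441 and 26771 in siAxl (0.07, SE 0.0703, adjusted p = 0.510), so its groups overlap. ARHGAP5 was at 21756 and 24597 against 25493 and 27651 (0.20, SE 0.0775, adjusted p = 0.120). MMP24 (-0.57, adjusted p = 0.0879), ZBED5 (0.14, adjusted p = 0.279), THAP9 (-0.10, adjusted p = 0.619), TP73 (-0.06, adjusted p = 0.773), VIM (0.12, adjusted p = 0.248) and CAPN10 (-0.14, adjusted p = 0.277) were not called, nor were their antisense RNAs. In the other 12 pairs with a called sense gene, the antisense RNA was not called. The largest such changes were in TTN, the giant muscle protein titin, at 24.0 and 27.1 in siCt and 51.5 and 56.0 in siAxl, and in LOXL1, a collagen cross-linking enzyme, at 417 and 334 against 670 and 679. Their log2 fold changes were 1.05 (adjusted p = 0.0204) and 0.85 (adjusted p = 0.0055), beside -0.08 for TTN-AS1 (adjusted p = 0.667) and 0.26 for LOXL1-AS1 (adjusted p = 0.0967).

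Whether an antisense RNA and its sense gene changed by different amounts was tested directly, with limma on the log2 ratio of the pair over all 157 such pairs of the table. The ratio was called in 4 pairs, or 2.55%, of which 3 were members. TTN-AS1 fell relative to TTN by 1.13 on the log2 scale (SE 0.136, adjusted p = 0.0113), with TTN-AS1 itself at 217 and 220 normalized counts in siCt and 209 and 204 in siAxl. VPS9D1-AS1 fell relative to VPS9D1 by 0.91 (SE 0.133, adjusted p = 0.0220). VPS9D1-AS1 was at 224 and 196 in siCt and 156 and 154 in siAxl (log2 fold change -0.43, adjusted p = 0.0577), and VPS9D1 at 520 and 491 against 735 and 673 (0.48, adjusted p = 0.0134). AFAP1-AS1 fell relative to AFAP1 by 0.67 (SE 0.113, adjusted p = 0.0358). The share of exonic bases also in opposite-strand exons was 55.1% for TTN-AS1, 29.5% for VPS9D1-AS1 and 7.70% for AFAP1-AS1. Since counting by strand is not stated, reads from such bases cannot be assigned to 1 gene of a pair.

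The ratio of KTN1-AS1 to KTN1 was -0.55 (SE 0.128, adjusted p = 0.0844) and that of ARHGAP5-AS1 to ARHGAP5 -0.55 (SE 0.142, adjusted p = 0.0933), so a different change of the 2 strands was not shown for them. For HHIP-AS1 and HHIP the ratio was 0.05 (SE 0.119, adjusted p = 0.919). Without siAxl 2 the number of called ratios was 0 (limma), with an adjusted p of 0.384 for AFAP1-AS1 and 0.0658 for TTN-AS1 and VPS9D1-AS1. The call of AFAP1-AS1 was also lost without siAxl 1, that of TTN-AS1 without siCt 1, and that of VPS9D1-AS1 without any of the 4 libraries. In total 12 of the 54 member pairs had a ratio with an unadjusted p under 0.05, and the share over all 157 pairs was not counted directly. Benjamini-Hochberg adjustment took a limma ratio p of 0.0443 (TFAP2A-AS1) to 0.240, which places that share near that of the members. The 12 are thus not read as particular to them.

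**Figure D4:**
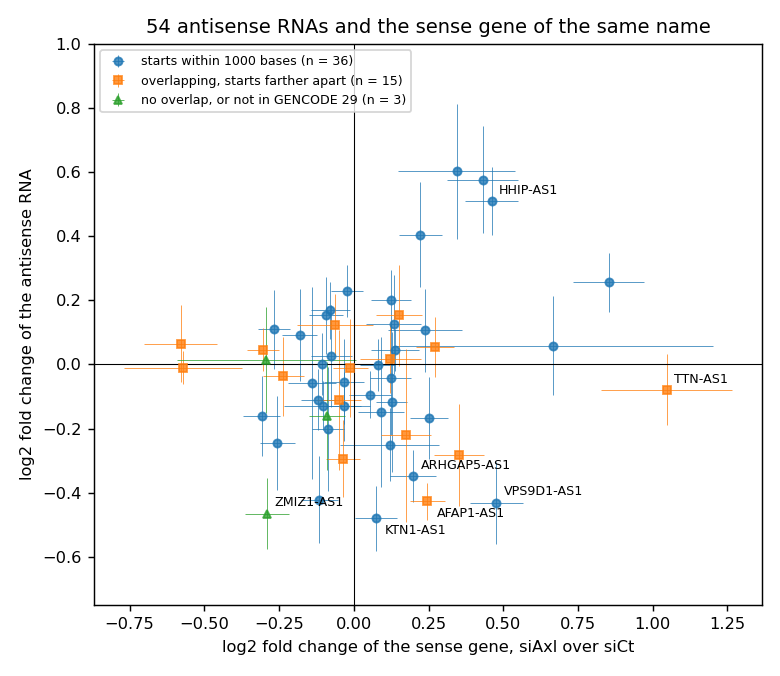
Each point is 1 of 54 antisense RNAs with the sense gene of its name, the log2 fold change (siAxl over siCt) of the sense gene on the horizontal axis and of the antisense RNA on the vertical axis, with SE as error bars. Marker shape gives the arrangement in GENCODE 29, and names are given where the antisense RNA or the ratio was called, such as AFAP1-AS1 at -0.43 beside 0.25 for AFAP1.

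Compared per kilobase of exon, the antisense RNA was the lower of the pair in most cases. Its mean was above that of the sense gene in 11 of 53 pairs with lengths, and the median was 21.8 antisense counts per kb for every 100 of the sense gene. MMP24-AS1 stood at 7240 per 100 of MMP24, TTN-AS1 at 3088 per 100 of TTN, and HHIP-AS1 at 570 per 100 of HHIP. AFAP1-AS1 was at 60.3, KTN1-AS1 at 5.34 and VIM-AS1 at 1.13.

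Since most clone-named RNAs carry no sense name, each member was also set beside the most abundant gene on the opposite strand that it overlaps or starts beside, a choice made after the values were seen. Of the 140 such genes tested, 13 rose beside an antisense RNA that was not called and 1 beside one that fell. Another 11 fell, each beside an antisense RNA that was not called. Of all genes tested, 10.8% were called higher and 7.91% lower. Together with an antisense RNA that rose, 3 of the 140 rose. SLCO4A1, beside RP11-93B14.5, went from 3445 and 2582 normalized counts in siCt to 6358 and 5652 in siAxl (log2 fold change 1.01, SE 0.130, adjusted p = 0.0044). ITGA6, opposite AC093818.1, went from 21394 and 20576 to 28728 and 30626 (0.50, SE 0.0605, adjusted p = 0.0037). HHIP was the third.

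For 7 other rising RNAs the opposite gene was tested and not called, among them FMNL1 (0.27, adjusted p = 0.0648) beside CTD-2020K17.1, BRD3 (0.19, adjusted p = 0.0680) opposite LINC00094 and HOXD1 (0.27, adjusted p = 0.305) beside HOXD-AS1. SAP30, beside RP11-798M19.6, was at -0.04 (adjusted p = 0.715). MMP25, beside RP11-473M20.7, was too low to test at 2.88 to 10.8 normalized counts. The correlation of log2 fold changes over the 140 was 0.24 (Pearson) and 0.16 (Spearman), again a description over pairs that share 4 libraries. It was 0.30 and 0.14 over the 97 with starts within 1000 bases. Over the 43 that overlap with starts farther apart it was 0.16 and 0.16. Because AC093818.1 shares 20.3% and RP11-93B14.5 22.6% of exonic bases with opposite-strand exons, and counting by strand is not stated, how far their reads come from ITGA6 and SLCO4A1 cannot be told apart from their own.

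The machinery that degrades or works with antisense RNA was followed through 4 lists. The RNA exosome and its cofactors degrade nuclear noncoding RNA. Of its 20 genes 7 fell, the only ones called, with a median log2 fold change of -0.21. Called lower were 7.91% of all genes and 1208 of the 12088 genes with a mean of at least 100. In either direction, as a scale for the next 2 lists, 18.7% of all genes and 23.4% of those with a mean of at least 100 were called. EXOSC9 fell from 3202 and 3336 normalized counts to 2265 and 2255 (-0.53, adjusted p = 0.0027), EXOSC8 by 0.36 (adjusted p = 0.0143) and MPHOSPH6 by 0.40 (adjusted p = 0.0161). Nonsense-mediated decay, which removes many spliced cytoplasmic RNAs, had 2 of 16 genes called, with a list median of -0.05, namely the lower SMG9 (-0.28, adjusted p = 0.0174) and UPF3B (-0.30, adjusted p = 0.0228), with SMG5 at 0.20 (adjusted p = 0.0612). Of 18 genes that bind or process paired RNA strands, AGO4 alone was called (0.27, adjusted p = 0.0279), with a list median of -0.05, ADARB1 at 0.24 (adjusted p = 0.0634) and PRKRA at 0.20 (adjusted p = 0.0710). Without siAxl 1, and likewise without siAxl 2, only 2 exosome genes were called and none of the other 2 lists. Without siCt 1, 5 decay genes and 4 of paired RNA were called.

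The last list held 19 chromatin genes, mostly of repressor complexes, that have been named as partners of antisense RNAs. Of these 2 rose and 4 fell, and the median was -0.07. In either direction, 18.7% of all genes and 23.4% of genes with a mean of at least 100 were called. RCOR1, a corepressor, rose by a log2 fold change of 0.73 (adjusted p = 0.0025) and JARID2, an accessory subunit of Polycomb complex PRC2, by 0.41 (adjusted p = 0.0062), while the DNA methyltransferase DNMT3B fell by 0.53 (adjusted p = 0.0053). The core PRC2 subunits EED, EZH2 and SUZ12 were the others that fell. Without siAxl 1, 3 of the 19 were called.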

How the data were processed

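RNA of MDA-MB-231 cells transfected with siCt or siAxl was sequenced in 2 libraries per group, grouped by their labels. Per the labels and the submitters' processing notes, CASAVA 1.8, TopHat2 2.0.10, HTSeq 0.5.3 and DESeq2 1.4.5 were used with GRCh37. The strand setting and the annotation release are not given in the sources used here. The authors deposited 1 table of normalized counts, a signal in which reads per gene are divided by the library's size factor. Its columns of fold changes, standard errors, test scores and p-values from the authors' own comparison were not used, and per-sample columns not used numbered 0.

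Dividing by the smallest step of each library gave whole reads for 100% of the values (tolerance 0.001 reads). Genes passing filterByExpr were tested with limma 3.58.1 (R 4.3.3) on log2(normalized count + 1), without covariates, with Benjamini-Hochberg adjustment over 16064 genes, of which 3006 were called at an adjusted p under 0.05. Fold changes on this scale understate the change of low genes. As alternatives, edgeR 4.0.16 (TMM) called 1850 genes higher and 1270 lower, and DESeq2 1.42.0 called 1487 and 1109. Antisense-to-sense ratios were tested with limma on differences of log2 values over 157 pairs. The scripts were tested on simulated data. The antisense RNAs, the gene lists and the rule for named genes were chosen with earlier results of these data known. The rule named AXL, every called member, the 10 highest, those at the edge of the mean of 100, the sense genes of named members, called ratios, members of known function and the 3 genes of smallest adjusted p per list. EED, EZH2, SUZ12, SETD5-AS1, AC018766.5, further pairs with a called sense gene or a sense gene too low to test, and the opposite-strand neighbours were chosen after their values were seen. Exonic lengths and overlaps come from GENCODE 29 by Ensembl identifier, a build other than the authors', so only RefSeq windows carry coordinates.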

Additional observations from a re-analysis of the deposited data

How the results depend on the processing

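Of the results that a comparison rests on, 91 alternative values were labelled the same and 39 moved. A count of called members was the same when it lay within a set ratio of its main value. Their median was the same when it differed by less than 0.0506, the SD of the medians with 1 library left out. These labels do not say on which side of 0 a value lay. For the single RNAs and ratios named, 424 were the same, 81 lost a call, 15 gained one and 16 changed sign. AFAP1-AS1 and RP11-93B14.5 were called in every alternative fit, and both had an adjusted p under 0.01. Of the 16 called members, 16 were called again with a pseudocount of 0.5 or 8, 14 with TMM scaling, 13 with upper quartile scaling and 13 with library size scaling. The same held for 13 with edgeR and TMM, 15 with edgeR and DESeq2 size factors, and 10 with DESeq2.

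With every gene of at least 1 count tested, 757 genes were called higher and 340 lower over the whole table, 2 members were called higher and 1 lower, 0 ratios, 1 exosome gene, 0 nonsense-mediated decay genes and 0 genes of paired RNA. The threshold shaped the counts, which were 1 higher and 1 lower at an adjusted p under 0.01 and 20 and 16 at 0.1. With a mean of at least 50 there were 18 called higher. Scaling by library size alone gave 9 called lower, and both this and upper quartile scaling gave 2 called genes of paired RNA.

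The replicate numbers are shared between the groups, but nothing in the labels says that a number marks a shared day or batch. The difference between replicates 1 and 2 correlated between siCt and siAxl at 0.62 over 12088 genes and 0.64 over the members. With the replicate number as a block, 3737 genes of the whole table were called higher and 3573 lower, and 30 members were called higher and 28 lower, with 32 called ratios, and in the lists 12 exosome, 7 nonsense-mediated decay, 11 paired RNA and 12 chromatin genes.

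When 1 library was left out, members called higher ranged from 3 (without siAxl 1) to 22 (without siCt 1) and members called lower from 2 (without siAxl 1 or siAxl 2) to 13 (without siCt 2). In these fits the group with 1 library is assumed to vary like the other. The members' median log2 fold change ranged from -0.054 to 0.047, that of AXL from -2.07 to -1.79, and called ratios from 0 (without siAxl 2) to 3. Called exosome genes ranged from 2 to 7, nonsense-mediated decay genes from 0 to 5, paired RNA genes from 0 to 4 and chromatin genes from 3 to 6, each lowest without siAxl 1.

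None of the RNAs that changed sign was called. Leaving out 1 library gave ranges of log2 fold change from -0.029 to 0.0089 for MMP24-AS1, from -0.28 to 0.34 for RP11-349A22.5, from -0.0067 to 0.098 for ZBED5-AS1, from -0.45 to 0.33 for CAPN10-AS1, from -0.22 to 0.25 for SNHG12, from -0.026 to 0.19 for KCNQ1OT1, from -0.075 to 0.21 for LINC-PINT and from -0.0037 to 0.15 for KTN1. Library size scaling gave -0.00058 for RP11-349A22.5 and -0.014 for SNHG12, and upper quartile scaling -0.0032 for SNHG12. With 2 libraries per group and counts near 100, only large differences could pass the test, as the median SE of 0.157 for members with a mean of 100 to 200 shows.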

Other observations

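The antisense-to-sense ratio that differed most lay outside the 160 RNAs. ADAMTS9-AS2, whose mean was under 100, was at 35.5 and 29.3 normalized counts in siCt and at 85.5 and 95.3 in siAxl, with both siAxl libraries well above both siCt libraries. Its log2 fold change was 1.46 (limma, Benjamini-Hochberg adjusted p = 0.0054). ADAMTS9, which encodes a secreted metalloprotease, was at 2468 and 2762 in siCt and at 1876 and 2112 in siAxl, a log2 fold change of -0.39 (adjusted p = 0.0221). The log2 ratio of the pair was 1.85 higher in siAxl (SE 0.209, adjusted p = 0.0113) and ranged from 1.63 to 2.07 when 1 library was left out, no longer called without siAxl 2 (adjusted p = 0.0658). Among the 54 tested pairs of the 160, none combined a called rise of the antisense RNA with a called fall of its sense gene. HHIP-AS1 was the only antisense RNA called higher in these pairs, so this absence rests on that pair alone.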
